A study of Bos grunniens x Bos taurus and Bos grunniens with 12 samples.

Results

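The predicted candidates of 20 nt or longer are small RNAs of milk exosomes that matched no known miRNA precursor and were proposed as miRNAs because the sequence around them in a genome could fold into a hairpin. The authors named them PC, followed by the arm of the hairpin (5p or 3p). They were chosen by name, by a length of 20 to 26 nt and by level, for which 3 or more of the 12 libraries had to reach a norm value of 10. The norm value is the copy number of an entry multiplied by 1 correction factor per library. Of 2263 entries in the table, 1154 were predicted candidates, 331 of these had 20 to 26 nt, and 37 met the level rule. The other 294 missed it. PC-5p-157991_23 and PC-5p-39804_149 stood just inside the rule, since the lowest of their 3 highest norm values was 10.21 and 10.15. PC-3p-305981_10, with 9.81, and PC-3p-95280_48, with 9.17, stood just outside. Since level chose the 37, their levels and counts below are a description, and a candidate that met the rule through the libraries of a single group had to differ between groups.

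Exosomes were isolated from milk of Jeryak, the cross of yak with Jersey cattle, and of yak, taken from lactating animals of 4 to 5 years in June and in December. The 4 groups, with 3 libraries each, were December Jeryak, December yak, June Jeryak and June yak. The sequenced milk came from 3 Jeryaks and 3 yaks. Which animal gave which library is not stated in the labels, nor whether June and December milk came from the same animals, so p-values measure the spread between these libraries. The summed norm value of a library was 588715 to 816871. The lowest norm value above 0 was 0.0692 to 0.135 in December Jeryak, 0.796 to 1.69 in December yak, 0.711 to 2.47 in June Jeryak and 0.51 to 2.89 in June yak, so entries of low abundance were easiest to see in December Jeryak milk. Any batch in which libraries were made or sequenced cannot be told apart from the month. Replicates of a December group had correlations of 0.938 to 0.979 across the 37 candidates on the log2 scale, and replicates of a June group 0.644 to 0.79, a description across entries. Shared values of 0 enter the December correlations, since 20 of the 37 were at 0 in all 6 December libraries. Across all 620 entries that met the level rule the correlations were 0.941 to 0.974 in December and 0.766 to 0.813 in June. All 10 milk and epithelial miRNAs looked up as a check of the tissue were above 0 in all 12 libraries, as was 1 of 3 miRNAs of red cells. None of 4 leukocyte miRNAs was, 1 of which had no bovine entry, and the other 3 were above 0 in 6 to 11 libraries.

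A miRNA is cut from a hairpin, first by Drosha in the nucleus and then by Dicer in the cytoplasm, which leaves a duplex of both arms with short overhangs at the 3′ ends. One arm is loaded into an Argonaute protein, which favours U as the first base, and bases 2 to 8 of that arm, the seed, pair with the target mRNA. Fragments of longer RNAs, such as tRNA and rRNA, are also present in milk exosomes and can have the length of a miRNA.

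The sequences that the results turn on are given 5′ to 3′ as in the deposited table, with T for U. The first set holds the candidates with the highest mean or the clearest December values, with bases 2 to 8 in capitals.
PC-3p-239_27215: tCGACTCCcggtatgggaac
PC-5p-681_10485: tCCCTGTGgtctagtggttaggat
PC-3p-1026_6980: aAAACACGaacaaacttttcgg
PC-5p-14546_484: tCCCTGGTctagtggttaggatt
PC-3p-67666_76: cTGGACGCtagccgggcccg
PC-5p-174040_20: aACCCGGTcagcctcctcca

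The second set holds candidates seen in June, again with bases 2 to 8 in capitals. The last 3 were listed in 1 breed alone in June.
PC-5p-1540_4872: gTCGGAGCtgggtggggccg
PC-3p-970_7371: gCGGTCGGgcggcggcggtc
PC-3p-9653_762: gGGGAGTGctcacgcgcctcc
PC-5p-12237_589: cTGAGGAAaagaaatcaacc
PC-3p-13327_533: gAGAACTCaggagaaggaac
PC-5p-15002_468: gGGGGAGGttctctcggggc
PC-3p-38692_154: gGGCCTCTctcgagctggtg
PC-3p-43357_134: aAGATGAAaagcactttggaa
PC-3p-71515_71: tTCAGCCTtgactgagcgct

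Few of the candidates had the form usual for a miRNA. A length of 21 to 23 nt was found in 13 of 37 (35.1%), and 7 (18.9%) began with T, the U of the RNA. PC-5p-14546_484, with 23 nt and a first T, was the only 1 of 37 (2.7%) with both. Among entries named after cattle precursors (bta) that met the same level rule, 99 of 251 (39.4%) had both. With 20 to 24 nt taken as usual, 7 of 37 candidates (18.9%) and 116 of 251 bta entries (46.2%) qualified. The most common length was the shortest the rule admits, with 23 of 37 at 20 nt, 7 at 21, 4 at 22, 2 at 23 and 1 at 24. The 5p and 3p arms gave 18 and 19 candidates. G was the most common first base, with 13 of 37 (35.1%), against 18 of 251 bta entries (7.17%). A first T was found in 29 of the 138 predicted candidates of 18 or 19 nt that met the level rule (21%) and in 118 of 251 bta entries (47%). G and C bases made up a median of 65% of a candidate, with a range of 33.3 to 100%, against a median of 55.6% in candidates of 18 or 19 nt and 47.6% in bta entries. A share of 70% or more was found in 17 of 37 candidates (45.9%), 24 of 138 shorter ones (17.4%) and 22 of 251 bta entries (8.76%). These shares were not tested, since entries that overlap in sequence are not independent. Length and first base do not show that an entry is a miRNA. Whether any candidate, PC-5p-14546_484 included, is a fragment of a tRNA or rRNA was not tested.

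Most candidates were listed in June milk and not in December milk. In a December Jeryak library 9 to 14 of the 37 were above 0, and in a December yak library 7 to 11. The number was 24 to 29 in June Jeryak and 25 to 27 in June yak libraries, so the months did not overlap. Counted at a norm value of at least 10, which lies above the lowest value of every library, 5 to 7 were present in December Jeryak, 7 to 9 in December yak, 21 to 29 in June Jeryak and 19 to 26 in June yak. In all 6 December libraries 20 of 37 candidates (54.1%) were listed at 0, and 2 (5.41%) in all 6 June libraries. Over all 620 entries that met the level rule 24% were listed at 0 throughout December. The share was 110 of 138 (79.7%) among the shorter candidates and 0 of 251 among bta entries. Of the 37, 25 reached 10 in no December library, 2 in no June library, and 10 in both months. Of the 294 candidates of this length that missed the rule, 211 (71.8%) were listed at 0 throughout December and 63 (21.4%) throughout June.

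**Figure D1:**
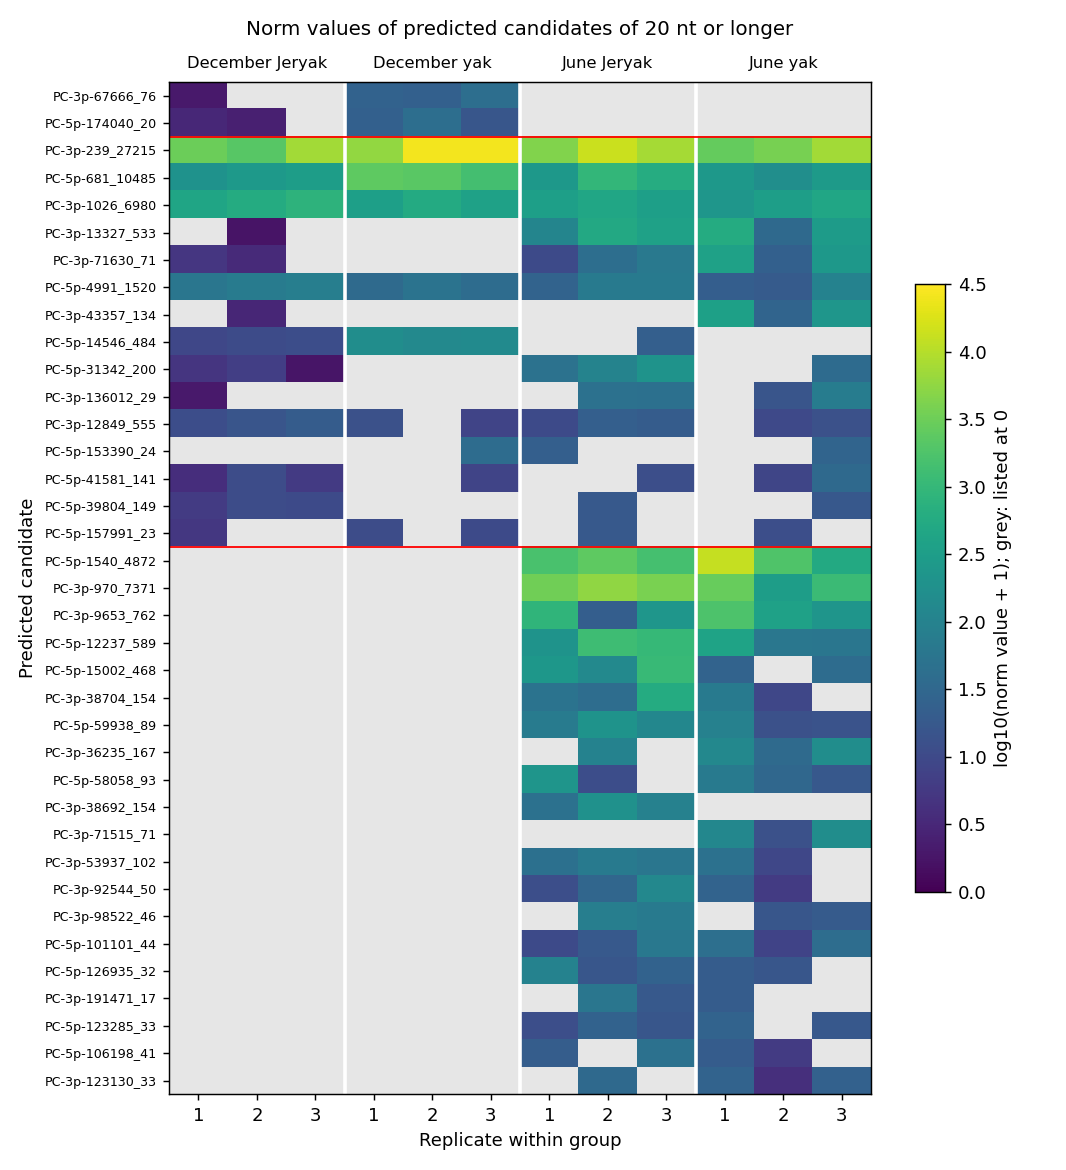
Norm value of each of the 37 candidates (rows) in each of the 12 libraries (columns, by group), as log10 of the norm value plus 1, with grey for a value of 0. Red lines separate 2 candidates at 0 throughout June, 15 seen in both months and 20 at 0 in all 6 December libraries.

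Detection in December differed with length. All 7 candidates of 22 to 24 nt were above 0 in a December library, against 2 of 7 at 21 nt and 8 of 23 at 20 nt. Among the candidates that missed the level rule, which have values of their own, 21 of 58 at 22 to 24 nt (36.2%) were listed at 0 throughout December, with 50 of 68 at 21 nt (73.5%) and 138 of 166 at 20 nt (83.1%). Base content differed as well. The 20 candidates at 0 throughout December had a median of 73.2% G and C (40 to 100%), and 13 of them had 70% or more. The 17 seen in December had a median of 50% (33.3 to 95%), and 4 of them had 70% or more. Being seen in December leans on December Jeryak, where entries of low abundance were easiest to see. Of the 17, 4 were above 0 in December only in that group, at no more than 5. PC-5p-31342_200, of 22 nt, was at 0.808 to 5.96 in December Jeryak and at 0 in December yak.

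**Figure D2:**
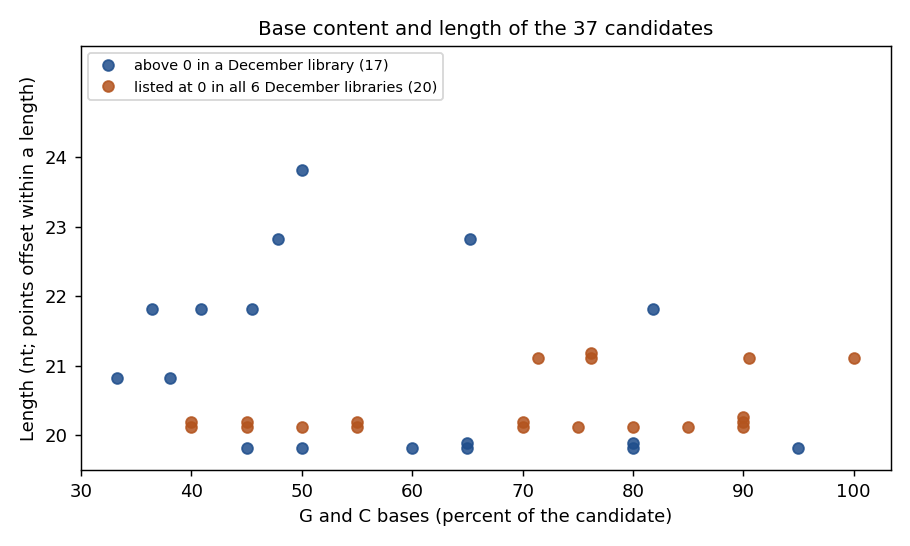
Share of G and C bases (horizontal axis, percent) and length (vertical axis, nt, points offset within a length) of the 37 candidates. All 7 candidates of 22 to 24 nt belong to the 17 seen in December, and 13 of the 20 at 0 throughout December lie at 70% or more.

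The number of candidates did not set their summed level. Together they took 0.4 to 1.45% of the summed norm value in December Jeryak libraries, 1.46 to 4.95% in December yak, 1.85 to 3.85% in June Jeryak and 1.13 to 2.8% in June yak. PC-3p-239_27215 alone held 69 to 86% of this in December Jeryak, 66.5 to 92.7% in December yak, 36.5 to 52.5% in June Jeryak and 11.7 to 63.9% in June yak. Without it the share was 0.117 to 0.203% in December Jeryak, 0.358 to 0.504% in December yak, 1.17 to 1.83% in June Jeryak and 0.537 to 2.48% in June yak, and the December and June ranges no longer overlapped. In bulk RNA, fewer exosomes of a kind and fewer copies in each of them cannot be told apart.

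**Figure D3:**
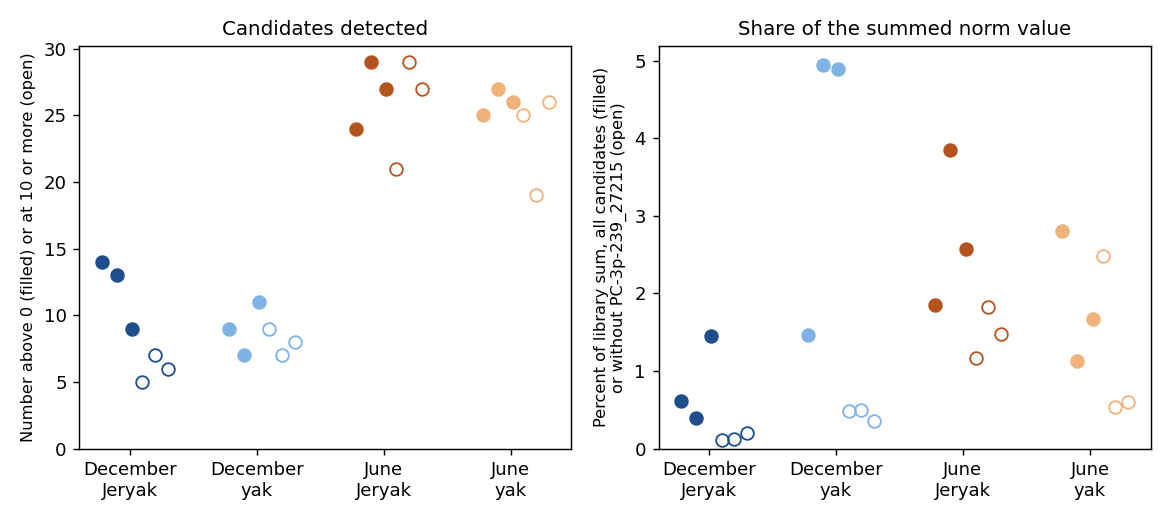
Left, the number of the 37 candidates above 0 (filled points) or at 10 or more (open points) in each library. Right, their share of the library's summed norm value in percent, for all 37 (filled) or without PC-3p-239_27215 (open). December libraries lie at 7 to 14 candidates above 0 and June libraries at 24 to 29.

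The comparison of December with June within Jeryak asked which candidates change with the month in the cross. The fit was made with limma on log2 of the norm value plus 1 over all 620 entries that met the level rule, and passing meant a p under 0.05 after Benjamini-Hochberg adjustment. Of 37 candidates 17 were lower in December (45.9%) and none was higher, with 0 higher and 21 lower at an unadjusted p under 0.05. Over all 620 entries 40.8% passed, with 28.9% lower and 11.9% higher. Lower in December were 65.9% of the 138 shorter candidates. All 17 calls were of candidates that reached 10 in June only, so their direction follows from the level rule. Of the 17, 14 were listed at 0 in all 3 December Jeryak libraries, so no fold is given for them. The median difference of the 37 was -3.35 on the log2 scale, against -0.61 over all entries, with a value of 0 entering as log2 of 1.

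In yak, 13 candidates were lower and 5 higher in December than in June, also with limma. Over all 620 entries 34% passed, with 22.6% lower and 11.5% higher. All 13 lower ones were listed at 0 in the 3 December yak libraries. Of the 18 calls, 15 were of candidates that reached 10 in a single month. These were the 13 lower ones in June and PC-3p-67666_76 and PC-5p-174040_20 in December. PC-5p-14546_484, also higher in December, would have missed the level rule without its December yak libraries. The median difference of the 37 was -2.80, against -0.59 over all entries. Of the 37, 8 were lower in December in both breeds, 9 passed in Jeryak alone, 5 were lower and 5 higher in yak alone, and 10 passed in neither. No matching count over all 620 entries is given, so these numbers describe the 37 only. That a candidate passed in a single breed does not show that the breeds differ.

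**Figure D4:**
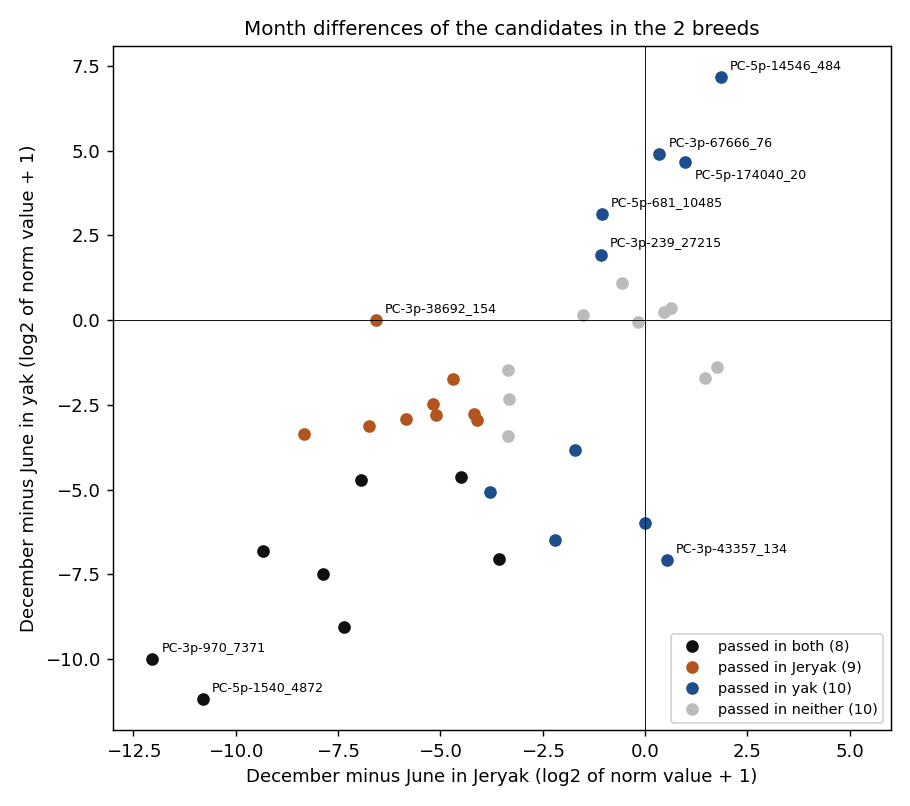
December minus June difference of each candidate in Jeryak (horizontal axis) and in yak (vertical axis), on the scale of log2 of the norm value plus 1, where a value of 0 enters as 0. Points are coloured by the comparison in which the adjusted p was under 0.05, with 8 in both breeds, all at lower left, and the 5 that were higher in December yak at the top.

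The June candidates with the highest means were rich in G and C. PC-3p-970_7371, with 90% G and C, was listed at 0 in all 6 December libraries, against 3330, 5718 and 3938 in June Jeryak and 2874, 323.1 and 1186 in June yak (adjusted p = 7.0e-08 in Jeryak and 4.0e-07 in yak, from limma). PC-5p-1540_4872, with 80% G and C, was likewise at 0 throughout December, against 1608, 2394 and 1498 in June Jeryak and 12630, 1801 and 547.4 in June yak (adjusted p = 1.0e-06 in Jeryak and 9.1e-07 in yak). The 3 June yak libraries of PC-5p-1540_4872 spanned 23.1-fold, the widest in that group among the 17 candidates above 0 in all 3 libraries. PC-3p-9653_762, with 76.2% G and C, was listed at 0 in December, against 888.9, 21.05 and 227 in June Jeryak and 1752, 378.1 and 225.4 in June yak (adjusted p = 2.9e-04 in Jeryak and 5.8e-05 in yak). The December groups, at 0 throughout, add no spread to the variance shared by all groups, so these p-values can be too small. With the 2 groups alone in limma, the adjusted p of PC-3p-970_7371 was 6.1e-06 in Jeryak and 1.2e-04 in yak. That of PC-3p-9653_762 was 0.0036 in Jeryak and 1.4e-04 in yak, and that of PC-5p-1540_4872 was 1.4e-04 in yak. PC-3p-9653_762 spanned 42.2-fold in June Jeryak, the widest of 21 candidates there. The median span was 1.85-fold in December Jeryak over 9 candidates and 1.66-fold in December yak over 7, against 4.15-fold in June Jeryak and 7.77-fold in June yak. Each median is over the candidates above 0 in all 3 libraries of that group. These sets differ, so the medians do not compare the months for the same candidates.

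Some candidates with 50% G and C or less were also higher in June than in December. Of the 14 under 55%, 5 were at 0 throughout December and 9 were above 0 in a December library. PC-5p-12237_589, with 40% G and C, was listed at 0 in all December libraries, against 203.3, 1288 and 1019 in June Jeryak and 409.2, 60.13 and 56.35 in June yak (adjusted p = 6.0e-06 in Jeryak and 7.8e-05 in yak, from limma). PC-3p-13327_533, with 50%, was at 0, 0.761 and 0 in December Jeryak, against 110.9, 528.4 and 380 in June Jeryak (log2 fold change -7.87, standard error 1.01, adjusted p = 5.8e-05). In yak it was at 0 in all 3 December libraries and had 580.8, 33.63 and 295.2 in June (adjusted p = 7.4e-05). The groups did not overlap in either breed, and the December Jeryak value lay far below the lowest June value. PC-3p-71630_71 had 4.08, 2.41 and 0 in December Jeryak and 9.24, 42.1 and 64.2 in June Jeryak (log2 fold change -3.57, standard error 1.14, adjusted p = 0.023), a call that ended when June Jeryak replicate 2 or 3 or December Jeryak replicate 3 was left out and under 2 other alternatives (highest adjusted p = 0.1). It was at 0 in December yak and had 379.5, 23.4 and 254.9 in June yak (adjusted p = 3.0e-04). PC-5p-59938_89 was at 0 throughout December, with 73.9, 204.2 and 118.4 in June Jeryak and 95.7, 12.2 and 13.4 in June yak (adjusted p = 6.3e-05 in Jeryak and 0.0011 in yak). PC-5p-101101_44 was the other one lower in both breeds, with 0 in December against 9.24 to 61.7 in June Jeryak and 7.13 to 42.9 in June yak (adjusted p = 0.0023 in Jeryak and 0.0018 in yak).

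PC-5p-15002_468 was at 0 in all 6 December libraries and passed in Jeryak, with 238.4, 132.6 and 1061 in June (adjusted p = 2.3e-04 from limma). PC-3p-38704_154, with 85% G and C, passed in Jeryak too, with 0 in December against 49.9, 40 and 584.8 in June (adjusted p = 0.0022). It shares bases 2 to 8 with bta-miR-11975_L+1R-1 and with 5 entries of other species. In yak PC-3p-38704_154 had 69.3, 8.15 and 0 in June and missed the threshold. Of the 20 candidates at 0 throughout December, 18 passed in at least 1 breed. All 20 met the level rule through June libraries alone, so their direction was fixed by the rule and this count is a description.

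A small group of candidates had its highest values in December yak milk. PC-5p-681_10485 had 194.1, 259.1 and 313.4 in December Jeryak, against 2390, 2203 and 1443 in December yak. It had 249.5, 934.8 and 599.6 in June Jeryak and 250.8, 164.1 and 279.1 in June yak. The lowest December yak library lay above the highest of the other 9. December yak exceeded June yak 8.7-fold by the means (log2 fold change 3.12, standard error 0.47, adjusted p = 1.7e-04 from limma), and December Jeryak was 7.87-fold lower than December yak (log2 fold change -2.97, standard error 0.47, adjusted p = 0.0023). PC-5p-14546_484, the candidate with the length and first base usual for a miRNA, had 7.98, 9.77 and 10.5 in December Jeryak, against 158.3, 132.4 and 139.8 in December yak. It had 0, 0 and 22.2 in June Jeryak and was at 0 in all June yak libraries (adjusted p = 2.0e-04 for December against June in yak). Outside December yak PC-5p-14546_484 reached a norm value of 10 only at 10.5 and 22.2, too few libraries for the level rule. That it was higher in December yak therefore follows in part from the rule. In December the breeds did not overlap, Jeryak being 15.2-fold lower by the means, but the threshold was missed (log2 fold change -3.80, standard error 1.10, adjusted p = 0.063).

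PC-5p-681_10485 and PC-5p-14546_484 share a run of 18 bases, in capitals here, which begins at base 7 of the first and base 5 of the second. PC-5p-95823_47, below the level rule, holds the first 21 bases of PC-5p-681_10485 and had 0, 1.01 and 3.77 in December Jeryak, 11.7, 14.7 and 0 in December yak and 0 in June.
PC-5p-681_10485: tccctgTGGTCTAGTGGTTAGGAT
PC-5p-14546_484: tcccTGGTCTAGTGGTTAGGATt
Being overlapping sequences, they are not independent measurements of the December yak level. PC-5p-14546_484 also shares bases 2 to 8 with bta-mir-2340-p3_1ss14TA, which averaged 8.65 in December Jeryak and 51.1 in December yak and was at 0 in June.

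PC-3p-67666_76 and PC-5p-174040_20, both of 20 nt, were the 2 candidates listed at 0 in all June libraries. Both met the level rule through the 3 December yak libraries alone, so that they were higher there was fixed by the rule, and the tests below describe the size of the difference only. PC-3p-67666_76 had 1.06, 0 and 0 in December Jeryak, against 24.8, 22.9 and 41 in December yak (log2 fold change -4.54, standard error 0.72, adjusted p = 0.0023 from limma). Its December yak libraries also passed against June yak (adjusted p = 1.5e-04). PC-5p-174040_20 had 2.13, 1.52 and 0 in December Jeryak, against 22.6, 40.9 and 14.9 in December yak (log2 fold change -3.65, standard error 0.77, adjusted p = 0.016), and passed against June yak (adjusted p = 3.7e-04). The call against December yak ended when December yak replicate 2 or December Jeryak replicate 3 was left out (adjusted p = 0.057 to 0.063). The values in December Jeryak lay below the lowest value above 0 of several other libraries, so a level of this size could not have been seen in them.

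PC-3p-239_27215, the highest of the 37, was above 0 in every library. It had 5952, 26554 and 26663 in December yak and 2683, 3722 and 7653 in June yak, a 4.21-fold higher mean (log2 fold change 1.93, standard error 0.66, adjusted p = 0.039 from limma), with 1 December library inside the June range. The call ended without December yak replicate 2 or 3, June yak replicate 1 or 2, December Jeryak replicate 1 or June Jeryak replicate 2 or 3 (adjusted p = 0.051 to 0.15). December Jeryak had 3122, 2162 and 7652, overlapping December yak, and missed the threshold against it (log2 fold change -2.12, adjusted p = 0.077). It also missed it against June Jeryak, with 4406, 13996 and 7945 (log2 fold change -1.08, adjusted p = 0.21).

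In December, 3 of 37 candidates differed between the breeds, all lower in Jeryak, which were PC-5p-681_10485, PC-3p-67666_76 and PC-5p-174040_20. Over all 620 entries 5.97% passed, with 4.03% lower in Jeryak and 1.94% higher. At an unadjusted p under 0.05, 1 candidate was higher and 5 were lower by limma. Since PC-3p-67666_76 and PC-5p-174040_20 met the level rule through December yak alone, 2 of the 3 calls and their direction follow from it, and PC-5p-681_10485 is the 1 that does not. In this comparison 20 candidates were at 0 in both groups.

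In June, 3 of 37 candidates were higher and 2 lower in Jeryak than in yak, against 5% of all entries, with 2.58% higher and 2.42% lower. PC-3p-38692_154 had 46.2, 191.6 and 93.8 in June Jeryak and was listed at 0 in the other 9 libraries (adjusted p = 5.6e-04 from limma). PC-3p-71515_71 was the reverse, at 0 in June Jeryak, with 118.8, 12.2 and 161 in June yak and 0 in December (adjusted p = 0.0024). PC-3p-43357_134 was also at 0 in June Jeryak and had 363, 27.5 and 230.8 in June yak (adjusted p = 0.0011). Its December Jeryak libraries had 0, 2.03 and 0. Each of these 3 was listed in June milk of 1 breed alone and met the level rule through those 3 libraries alone. Their calls are therefore of values that the rule selected. Over the June libraries alone they missed the threshold (adjusted p = 0.074 for PC-3p-38692_154 and PC-3p-43357_134, and 0.16 for PC-3p-71515_71).

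PC-5p-15002_468 had 238.4, 132.6 and 1061 in June Jeryak, against 26.4, 0 and 37.6 in June yak, 22.4-fold higher by the means (log2 fold change 4.99, standard error 1.27, adjusted p = 0.041 from limma). PC-5p-31342_200, with 81.8% G and C, had 49, 103.2 and 206 in June Jeryak, against 0, 0 and 36.2 in June yak (log2 fold change 4.94, standard error 1.29, adjusted p = 0.046). Outside June Jeryak, PC-5p-15002_468 reached 10 only at 26.4 and 37.6, and PC-5p-31342_200 only at 36.2. Without June Jeryak neither would have met the level rule, so these calls too are of values that the rule selected. The call of PC-5p-31342_200 ended without any one library but June yak replicate 3 (highest adjusted p = 0.15 from limma). That of PC-5p-15002_468 ended without any one December library or June Jeryak replicate 1 or 3 (adjusted p = 0.062 to 0.15). Without June yak replicate 1, 8 candidates were higher in June Jeryak and 2 lower. Over the 6 June libraries alone limma passed none of the 35 candidates fitted, with 5 higher and 3 lower at an unadjusted p under 0.05.

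The breed difference itself differed between the months for 5 of 37 candidates, by the interaction of breed and month in the same limma fit, 2 with a positive and 3 with a negative value, against 5.48% of all entries, with 1.61% positive and 3.87% negative. They were PC-3p-38692_154 and PC-5p-681_10485 (adjusted p = 0.0069 each), PC-3p-43357_134 (adjusted p = 0.011), PC-3p-71515_71 and PC-3p-67666_76 (adjusted p = 0.024 each). For PC-5p-681_10485 the breeds differed by -2.97 in December and by 1.20 in June on the log2 scale. The other 4 met the level rule through a single group, June Jeryak for PC-3p-38692_154, June yak for PC-3p-43357_134 and PC-3p-71515_71 and December yak for PC-3p-67666_76, so a difference of this kind was built in for them. The call of PC-3p-67666_76 ended without any one December Jeryak library or December yak replicate 3, and that of PC-3p-71515_71 also without December yak replicate 2 (adjusted p = 0.055 to 0.076). With no minimum norm value both calls ended (adjusted p = 0.13 for PC-3p-67666_76 and 0.11 for PC-3p-71515_71), as did that of PC-3p-71515_71 with a pseudocount of 10 (adjusted p = 0.053).

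Some candidates were above 0 in every group and passed in no comparison. PC-3p-1026_6980, of 22 nt, had 442.5, 581.1 and 803 in December Jeryak, 347.7, 562.2 and 370.9 in December yak, 341.9, 462.1 and 347.9 in June Jeryak and 227.7, 329.7 and 460.2 in June yak. The groups overlapped in each of the 4 comparisons, and none passed, with log2 fold changes of 0.22 to 0.64 (adjusted p = 0.20 to 0.80 from limma). PC-3p-12849_555 lacks its first base and is otherwise the same sequence, with 10.5, 14.1 and 19.4 in December Jeryak, 12, 0 and 7.46 in December yak, 9.24, 22.1 and 19.7 in June Jeryak and 0, 8.66 and 12.1 in June yak. PC-3p-1026_6980 also holds all 21 bases of bta-miR-2285bf_1ss20TC, an entry named after a bovine precursor with 1 substitution. That entry had 99.3 ± 21.1 in December Jeryak, 100.7 ± 16.5 in December yak, 119 ± 27.7 in June Jeryak and 215 ± 64.2 in June yak (norm value, SD, n = 3). The candidate is 1 base longer at the 3′ end than that entry. The bases shared with the bta entry are in capitals.
PC-3p-1026_6980: AAAACACGAACAAACTTTTCGg
bta-miR-2285bf_1ss20TC: AAAACACGAACAAACTTTTCG
PC-3p-12849_555: AAACACGAACAAACTTTTCGg

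PC-5p-4991_1520, of 23 nt with a first G, was also above 0 in all 12 libraries. It had 56.5, 72.8 and 83.9 in December Jeryak, 34.7, 50.7 and 38.2 in December yak, 25.9, 70.5 and 71.5 in June Jeryak and 21.4, 18.9 and 97.9 in June yak. December Jeryak lay above December yak in every library, the other groups overlapped, and no comparison passed (log2 fold changes 0.24 to 0.77, adjusted p = 0.60 to 0.83 from limma). Together with PC-3p-239_27215, PC-5p-681_10485 and PC-3p-1026_6980 it makes up the 4 of 37 candidates (10.8%) seen in every library, against 149 of 251 bta entries (59.4%).

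Both arms of a hairpin can be seen where an entry of the table is complementary to a candidate. A run of at least 14 complementary bases in another entry was found for 2 of 37 candidates (5.41%), 19 of 251 bta entries (7.57%) and 1 of 138 shorter candidates. PC-5p-41581_141 and PC-3p-87748_53, both of 22 nt, are complementary over 20 bases, in capitals here, and each leaves 2 bases unpaired at its 3′ end, as the arms of a duplex cut by Dicer do. No genome was used here, so that both lie in 1 hairpin was not tested.
PC-5p-41581_141: ACTCTCATAGGGTGGGATTTga
PC-3p-87748_53: AAATCCCACCCTATGAGAGTtc
PC-5p-41581_141 had 2.84, 10.2 and 4.85 in December Jeryak, 0, 0 and 7.46 in December yak, 0, 0 and 11.1 in June Jeryak and 0, 7.64 and 33.5 in June yak, and no comparison passed. PC-3p-87748_53, below the level rule, had 0, 10.4 and 7.82 in December Jeryak and was listed at 0 elsewhere. The other pair joins PC-5p-4991_1520 with PC-3p-495593_6, of 20 nt, along all 20 bases of PC-3p-495593_6, and leaves 3 bases unpaired at the 3′ end of PC-5p-4991_1520.
PC-5p-4991_1520: GATGAGGCTCAGCGAGCCCTgga
PC-3p-495593_6: AGGGCTCGCTGAGCCTCATC
PC-3p-495593_6 was above 0 in June Jeryak replicate 2 alone, at 6.32.

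The 37 candidates had 37 different seeds, so they form no family by bases 2 to 8. A run of at least 16 bases was shared with another entry by 12 of them, with another predicted candidate by 10 and with an entry named in miRBase by 4. Besides the pairs above, PC-3p-98522_46, made of G and C alone, shares 17 to 19 bases with 6 entries named after human, mouse and other precursors. PC-3p-98522_46 was at 0 throughout December. Of the 6, pal-mir-10001-p5 averaged 208 in December Jeryak and 929.6 in December yak, and mmu-miR-5126_R-2_1ss18CT 29.05 and 116.3. The others averaged 0 in both, save mmu-miR-5126_L+1R-5 with 1.22 in December yak. PC-3p-92544_50, with 90% G and C, shares 17 bases with 2 entries named after miR-4488. PC-5p-1540_4872 shares 16 bases with each of 3 shorter candidates, of which PC-3p-4437_1717 was listed at 0 throughout December and averaged 895.5 in June Jeryak and 366.5 in June yak. PC-5p-126935_32 contains PC-5p-36450_166 whole, which was at 0 in December and averaged 64.2 in June Jeryak and 60.2 in June yak.

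The remaining candidates had mean norm values of at most 34.69 over the 12 libraries. PC-3p-36235_167, PC-5p-58058_93 and PC-3p-123130_33 were at 0 in December yak and passed against June yak (adjusted p = 0.0038, 0.019 and 0.035 from limma). The call of PC-5p-58058_93 ended without December yak replicate 1 or 3 or June yak replicate 1 (highest adjusted p = 0.071), and that of PC-3p-123130_33 without any one December library or June yak replicate 1 or 3 (highest adjusted p = 0.12). PC-3p-53937_102, PC-3p-92544_50, PC-5p-126935_32, PC-5p-123285_33, PC-3p-98522_46 and PC-5p-31342_200 passed between December and June in Jeryak alone (adjusted p = 0.0016 to 0.049 from limma). Their values in June Jeryak were 0 to 206. The calls of PC-3p-36235_167 in yak and of PC-3p-53937_102, PC-3p-92544_50, PC-5p-126935_32 and PC-5p-123285_33 in Jeryak were kept under every alternative. The call of PC-3p-98522_46 ended under 14 of 19 alternatives, among them each December library left out, June Jeryak replicate 2 or 3 and June yak replicate 2 (highest adjusted p = 0.19). PC-5p-31342_200 was above 0 in all 3 December Jeryak libraries, at 0.808 to 5.96, and lost its call when December Jeryak replicate 3 was left out (adjusted p = 0.052). PC-3p-136012_29, PC-3p-191471_17, PC-5p-106198_41, PC-5p-153390_24, PC-5p-39804_149 and PC-5p-157991_23 passed in no comparison, and had values above 0 in 3 to 5 of the 12 libraries. PC-5p-39804_149, of 22 nt, had 5.14, 10.2 and 9.43 in December Jeryak and was at 0 in December yak.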

How the data were processed

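The authors sequenced small RNA from milk exosomes (TruSeq Small RNA libraries, single-end) and processed reads of 18 to 26 nt with ACGT101-miR against miRBase 22.0, allowing 1 mismatch, with hairpins of predicted candidates folded by RNAfold. No source used here names the genome build. The deposited values are norm values, a signal made by the authors as copy number multiplied by 1 factor per library. Low values were whole multiples of a single step (tolerance 0.01 of a step) for 76.1 to 97.5% of entries per library. Reads per entry were therefore not recovered, and no count test was run. The paper lists raw and valid reads of the libraries in its supplement, which were not used here. All 12 columns were assigned to a sample by name.

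The 620 entries that reached a norm value of 10 in 3 or more libraries were fitted with limma 3.58.1 (R 4.3.3) on log2 of the norm value plus 1, with a mean per group, a trend in the variance and Benjamini-Hochberg adjustment over all 620. The plus 1 understates differences of low entries. Tables were made in Python 3.11.15 using numpy 2.4.6 and pandas 2.3.3, and figures using matplotlib 3.10.9. Candidates were named by rule: the 6 highest means, up to 4 per comparison and direction with the largest log2 fold change among those that passed with groups not overlapping (the last not asked of the interaction), those of usual length and first base, up to 6 sharing bases 2 to 8 or at least 16 bases with a bta entry, and the 2 on each side of the level rule. The others were added, after their values were seen, to account for all 37. Members and lists were chosen with earlier results of these data known. Alternatives were another pseudocount, no minimum value, library totals, bta totals, a common floor, a replicate block, the 2 groups alone and each library left out.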

Additional observations from a re-analysis of the deposited data

Results flagged for a closer look

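The difference between Jeryak and yak differed between December and June for 5 candidates, by the interaction in the limma fit over all 620 entries (5.48% of them passed). For 4 of the 5, all but PC-5p-681_10485, the level rule was met through a single group, so the difference was built in by the choice of candidates and its p is a description. The adjusted p was 0.0069 for PC-3p-38692_154, which was listed in June Jeryak milk alone, with 46.2, 191.6 and 93.8. It was 0.0069 for PC-5p-681_10485, with Jeryak 7.87-fold lower than yak by the means in December and 2.57-fold higher in June. It was 0.011 for PC-3p-43357_134 and 0.024 for PC-3p-71515_71, both listed in June in yak alone. It was 0.024 for PC-3p-67666_76, which was listed in December alone, with 1.06, 0 and 0 in Jeryak and 24.8, 22.9 and 41 in yak. Under the alternatives the call of PC-3p-71515_71 ended in 7 of 18 (adjusted p = 0.053 to 0.11) and that of PC-3p-67666_76 in 5 of 18 (adjusted p = 0.055 to 0.13), and the other 3 were kept in all 18.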

How the results depend on the processing

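Of all 48 calls of the 37 candidates, 34 were kept under every alternative, 14 were lost under at least 1, and no called value changed sign. None of the 5 calls between breeds in June was kept under every alternative. With the 2 groups alone in the limma fit, 5 candidates differed between breeds in December (1 higher and 4 lower in Jeryak) and 0 in June, with 5 higher and 3 lower at an unadjusted p under 0.05 in June. With no minimum norm value, 3 differed between breeds in June and 3 in the interaction. With 1 library left out, the count was 2 to 4 for breed in December, 3 to 10 for breed in June, 14 to 20 for month in Jeryak, 15 to 21 for month in yak and 3 to 7 for the interaction. In June it was 10 without June yak replicate 1, and 3 without any one December library or June Jeryak replicate 3. In the interaction it was 3 without any one December Jeryak library or December yak replicate 3. At a norm value of at least 10, 6 candidates were detected in the median December Jeryak library. With 20 to 24 nt as the usual length, 7 candidates had the usual length and first base. The mean share of the summed norm value without PC-3p-239_27215 was 0.148% in December Jeryak, 0.45% in December yak and 1.49% in June Jeryak. In June yak it was 1.21% (SD 1.1), with libraries at 0.537 to 2.48%. With 1 library left out the share of all 37 was 0.507 to 1.03% in December Jeryak, 3.17 to 4.92% in December yak, 2.21 to 3.21% in June Jeryak and 1.4 to 2.24% in June yak.

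With the replicate number as a block, 4 candidates passed for breed in December, 4 for breed in June, 18 for month in Jeryak, 19 for month in yak and 6 for the interaction. Deviations of libraries with the same number had correlations of -0.0622 to 0.138, so the numbers were not taken to pair the samples. Scaling to library totals moved the median of all 620 entries by 0.24 on the log2 scale for month in yak and by -0.17 in the interaction, and scaling to bta totals by 0.21 and -0.29. With 3 libraries a group and depth in reads not taken into account, a value of 0 does not show absence.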
